A study of Homo sapiens with 36 samples.

Results

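The EZH2 regions described here are those that no EZH2 peak of control cells overlapped. They are 1226 of the 2408 regions (50.9%) in the table in which the authors compared EZH2 ChIP-seq of knock-down and control cells with DiffBind, a program that tests read counts in regions. They were chosen by measured values, since a region was taken when it overlapped no peak of either control EZH2 list by even 1 bp. Of the other 1182 regions, 706 overlapped a peak of 1 control list (102 of the replicate 1 list and 604 of the replicate 2 list) and 476 overlapped peaks of both lists.

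The cells were DU145, a human prostate cancer line derived from a brain metastasis. Control cells (shCTR) carried a control short hairpin RNA, and knock-down cells (shPHF19L#4) carried a hairpin against the long isoform of PHF19, both delivered by lentivirus with puromycin selection. ChIP-seq sequences the DNA that an antibody brings down, and a peak is a stretch where reads pile up beyond the matched control library. Peak lists of 2 replicates were used for PHF19, EZH2 and SUZ12 in shCTR cells, and for H3K27me3 and MTF2 in shCTR and shPHF19L#4 cells; all rest on 1 cell line and 1 hairpin.

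EZH2 is the enzyme of Polycomb repressive complex PRC2, which methylates lysine 27 of histone H3, and SUZ12 is a core subunit that the enzyme needs. PHF19 and MTF2 are Polycomb-like proteins that bind PRC2 and connect it with chromatin, and MTF2 binds unmethylated CpG-rich DNA. In vertebrate cells PRC2 is best known at CpG islands of genes for developmental transcription factors and signalling proteins, where its trimethyl mark, H3K27me3, goes with a silent state.

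The following stretches of 200 bp from the centre of regions are examples from the group, chosen by EZH2 mean or by low CpG density, and all hold fewer CG than the group's median. Each is the + strand of GRCh37 (hg19), and capitals mark CG, the dinucleotide that makes up CpG islands. PAX9 (chr14:37126371-37126570) and HS3ST3B1 (chr17:14203897-14204096) come from regions over the start site of a gene with some of the highest EZH2 means of the group in shPHF19L#4 cells, and the stretches hold 8 and 10 CG.
PAX9: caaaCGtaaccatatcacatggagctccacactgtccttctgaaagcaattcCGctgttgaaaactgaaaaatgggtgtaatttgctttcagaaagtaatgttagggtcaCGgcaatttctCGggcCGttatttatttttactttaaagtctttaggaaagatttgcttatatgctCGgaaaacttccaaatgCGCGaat
HS3ST3B1: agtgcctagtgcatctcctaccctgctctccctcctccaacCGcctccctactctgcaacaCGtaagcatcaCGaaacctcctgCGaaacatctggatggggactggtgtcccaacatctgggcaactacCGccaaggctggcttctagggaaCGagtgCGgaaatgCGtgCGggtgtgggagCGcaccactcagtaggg
At the other end are the regions with the fewest CG for their length, of which 1 lay between genes with MECOM as the nearest gene (chr3:168564270-168564469) and 1 inside PLXNA4 (chr7:132246866-132247065). Neither stretch holds a CG.
near MECOM: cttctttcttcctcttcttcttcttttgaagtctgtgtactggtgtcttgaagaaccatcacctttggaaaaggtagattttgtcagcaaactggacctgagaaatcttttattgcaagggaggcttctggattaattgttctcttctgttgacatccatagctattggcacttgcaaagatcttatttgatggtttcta
in PLXNA4: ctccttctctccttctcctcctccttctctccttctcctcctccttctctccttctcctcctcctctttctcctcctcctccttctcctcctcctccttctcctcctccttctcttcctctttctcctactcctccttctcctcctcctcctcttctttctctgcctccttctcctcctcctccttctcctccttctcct
For comparison, CBX8 (chr17:77779681-77779880) and ONECUT3 (chr19:1756957-1757156) come from regions over a start site with EZH2 peaks in both control lists and some of the highest EZH2 means of that class. They hold 5 and 6 CG.
CBX8: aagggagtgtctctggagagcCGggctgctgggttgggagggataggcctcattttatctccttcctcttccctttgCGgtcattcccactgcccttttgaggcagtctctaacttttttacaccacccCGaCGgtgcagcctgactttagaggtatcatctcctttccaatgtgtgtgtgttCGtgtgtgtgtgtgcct
ONECUT3: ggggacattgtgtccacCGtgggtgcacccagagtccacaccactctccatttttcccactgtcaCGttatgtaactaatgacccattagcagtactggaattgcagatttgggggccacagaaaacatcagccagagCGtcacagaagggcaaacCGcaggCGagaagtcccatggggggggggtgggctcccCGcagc
The central 200 bp of the 1226 regions held a median of 16.0 CG, and 98.1% of them held at least 1, as did 98.2% of all 2408. GCG or CGC, the same motif read on either strand, with overlapping matches counted, was found in 90.7% of these windows and in 92.3% of those of all regions. In regions with a control peak the median was also 16.0 CG, 98.3% held at least 1, and 94.0% held GCG or CGC.

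On the authors' mean of EZH2 reads, the regions without a control peak were the low end of the table. This mean is a log2 read concentration over both replicates of a condition, deposited without values per replicate, and it comes from the EZH2 ChIP that chose the regions, so it is given as a description. How the libraries were scaled and whether input was subtracted is not given in the sources used here, so means and their differences hold on the authors' scale only. In shCTR cells the median of the authors' mean was 5.53 in regions without a control peak, 6.52 with a peak in 1 list and 7.50 with peaks in both. In shPHF19L#4 cells the medians were 6.72, 7.76 and 8.61. The regions were also shorter, with a median width of 2410.5 bp against 3486.5 and 4832.5 bp. Per kb of region the order of the classes was the same, at 4.24, 4.70 and 5.23 in shCTR cells and 5.43, 5.88 and 6.28 in shPHF19L#4 cells.

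All 1226 had the higher mean in shPHF19L#4 cells. The table holds regions past the authors' thresholds for a difference in either direction. These regions were chosen from it for having no EZH2 peak in control cells. The paper describes the regions it compared as all peaks called in control or in knock-down cells. By that description these 1226 were in the table only through EZH2 peaks of shPHF19L#4 cells, so nothing is read from the shared direction. The difference between the authors' means had a median of 1.19 without a control peak, 1.17 with a peak in 1 list and 1.09 with peaks in both. It ran from 0.45 to 3.50 in the regions without a control peak, and it was at least 1 in 885 of them and at least 2 in 26. On the scale of levels, 146 regions (11.9%) reached a mean in shPHF19L#4 cells above 7.50, the median that regions with peaks in both lists had in shCTR cells. Only 9 were above that value in shCTR cells themselves.

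**Figure D1:**
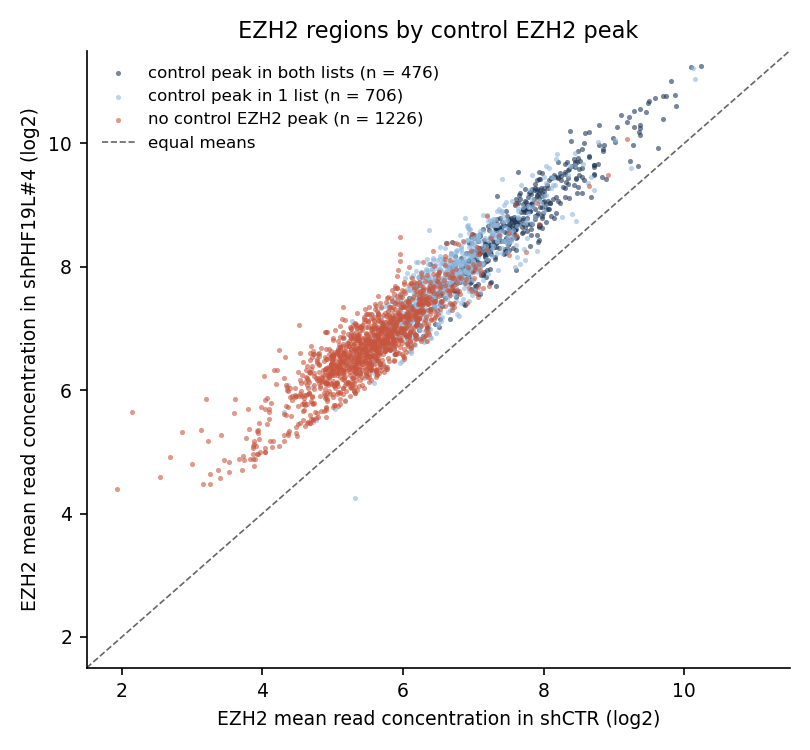
The authors' mean EZH2 read concentration of each region in shPHF19L#4 cells (vertical, log2) against shCTR cells (horizontal, log2), coloured by the number of control EZH2 lists with a peak. The 1226 regions without a control peak take the lower left, around a median of 5.53 and 6.72, and overlap the regions with a peak in 1 list.

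The edge of the choice was not sharp in EZH2 level. Just inside it, a region whose nearest gene was SCN3B lay 71 bp from a control EZH2 peak, with means of 5.47 in shCTR and 6.27 in shPHF19L#4 cells, and a region inside NPAS3 lay 252 bp from one, with means of 7.14 and 7.65. Just outside it, a region near FOXD4L5 shared 625 bp with a control peak and had means of 4.76 and 5.51. The MACS score of that peak, 61.5, lay between the lowest score of the replicate 1 list, 50.02, and its median, 74.73. TMEM74, which shared 725 bp with a peak of score 51.7, had means of 5.73 and 6.71. These regions on either side of the choice overlapped in their means. Most of the group was far from the edge, since the median distance to the nearest control EZH2 peak was 302603.5 bp, 872 regions lay more than 100 kb from any, and 14 lay within 1 kb. Between the lists, the replicate 2 list set most of the choice. With that list left out the number of regions without a control peak was 1830, and with the replicate 1 list left out it was 1328.

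The highest EZH2 mean of the group was at PAX9, a paired-box transcription factor of tooth and palate development. The authors' mean there was 9.19 in shCTR and 10.07 in shPHF19L#4 cells. EGLN3, a prolyl hydroxylase that acts on hypoxia-inducible factors, followed with 8.92 and 9.49, and MDGA2, a synaptic adhesion protein, with 8.65 and 9.31. These were the only 3 regions of the group with a mean of at least 8 in shCTR cells, and they lay on chromosome 14. After this was seen, the 6 regions of the group on chromosome 14 between 30 and 50 Mb were listed together. Their median was 5.37 per kb in shCTR cells against 4.24 in the others, and their median difference was 0.62 against 1.19. The authors' mean of the input reads is given only for regions of their PHF19 table. The paper describes 2 biological replicates of input for that comparison, and the libraries that the mean pools are not named. This input mean was 5.13 per kb at PAX9 and 4.62 at EGLN3, where the median of that table's 1245 regions was 3.65. PAX9 and EGLN3 were thus high in this input mean as well as in EZH2 reads, and the other 4 regions had no input value. The part of input in these EZH2 means was not tested.

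The next regions by EZH2 mean in shPHF19L#4 cells belonged to genes of several kinds. POU4F3, a transcription factor of inner ear hair cells, went with means of 7.90 and 9.04, and HS3ST3B1, a heparan sulfate sulfotransferase, with 7.59 and 9.01. A region at the start sites of CDC37, a partner of the chaperone HSP90, and PDE4A, a cyclic AMP phosphodiesterase, had 7.20 and 8.83. SYNDIG1L (7.93 and 8.70), the mucin gene MUC12 (7.50 and 8.54), the sialyltransferase gene ST3GAL1 (6.98 and 8.53), the syntrophin gene SNTB1 (7.36 and 8.52), XKR7 (7.60 and 8.51) and SAMD11 (5.96 and 8.48) completed the highest 12. All 12 lay within 2.5 kb of a start site of a protein-coding gene.

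Of the 6 regions with the largest differences, all but one near POU3F2 had a CpG density above the group's median, and all but SAMD11 had a control mean below the group's median of 5.53. At ADGRL1, which encodes the adhesion receptor latrophilin, a region of 1058 bp went from 2.15 to 5.65, a difference of 3.50. At NALF2 the means were 3.20 and 5.86, at MEX3D, an RNA-binding protein gene, 4.52 and 7.05, and at FAM149A 2.85 and 5.32. CpG density was 10.0, 12.4, 12.4 and 10.3 per 100 bp at these 4 genes. SAMD11, with a difference of 2.52, a width of 4101 bp and 7.83 CpG per 100 bp, was wider than most of the group. The region near POU3F2 was one of 894 bp between genes, 351271 bp from the start site of that gene. It had 0.447 CpG per 100 bp, means of 1.93 and 4.39, and also the lowest mean of the group in shPHF19L#4 cells.

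By position, the regions without a control peak were less often at promoters. Of the 1226, 756 (61.7%) reached to within 2.5 kb of a start site of a protein-coding gene, as against 75.8% of regions with a peak in 1 control list and 81.9% of those with peaks in both. A start site lay inside 55.0% of them and inside 74.5% of the regions with a control peak. The remainder fell into 189 regions (15.4%) inside a gene away from its promoter and 281 (22.9%) between genes, where the regions with a control peak had 8.04% and 13.7%. More than 50 kb separated 180 regions from any start site. At a like EZH2 level or width the shares lay in the same order, by less where most of the group lies. Among regions with a control mean from 6 to 7, 264 without and 523 with a control peak, with median widths of 3429.5 and 3371 bp, the promoter share was 62.1% and 78.0%. With a control mean from 5 to 6, which 677 of the regions without a control peak had, it was 63.4% and 70.2%, and among the regions of up to 2541.7 bp, which were 685 of the group, it was 58.4% and 61.0%.

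Over all regions, CpG density did not follow the same order. Its median was 5.18 per 100 bp in regions without a control peak, 5.16 with a peak in 1 list and 4.89 with peaks in both, while the genome had 0.985. At a like EZH2 level or width the regions without a control peak had the lower median in every bin compared. It was 5.26 against 5.64 with a control mean from 5 to 6, 4.37 against 5.11 from 6 to 7, and 3.25 against 4.74 from 7 to 8, where 26 regions had no control peak. From the narrowest to the widest of 3 bins of width it was 5.49 against 5.63, 4.93 against 5.24 and 3.82 against 4.85. GC content over all regions was 58.9%, 58.5% and 56.6%, and 40.9% in the genome. Within the group, promoter regions had a median of 5.95 CpG per 100 bp and the others 3.36. The regions outside promoters were thus lower in CpG than those at promoters, yet above the genome's level at the median.

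H3K27me3 was already called at most of these regions in control cells. In shCTR cells, 891 of the 1226 regions (72.7%) overlapped an H3K27me3 peak of replicate 1 and 881 (71.9%) of replicate 2, a mean of 72.3% ± 0.577 (SD, n = 2). In regions with a control EZH2 peak the shares were 93.5% and 95.9%. In both kinds of region, then, the 2 lists lay close together, and the distance between the kinds was larger than that between the lists. Peaks of both lists were found at 734 regions (59.9%), of replicate 1 alone at 157, of replicate 2 alone at 147 and of neither at 188 (15.3%). Among the regions with a control EZH2 peak, 18 (1.52%) had no H3K27me3 peak in either list.

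The H3K27me3 peaks also carried lower scores where EZH2 had no control peak. Among regions with a peak, the median of the highest MACS score was 268 and 194 in replicates 1 and 2, against 482 and 506 in regions with a control EZH2 peak. The highest score is taken over all peaks that a region overlapped, and regions with a control EZH2 peak were wider. The part of width in these scores was not tested. With peaks of a score of at least 100 only, the mean share of the regions without a control EZH2 peak was 57.6%. Within the control mean of EZH2 from 6 to 7 the shares came nearer, at 88.3% and 95.1% without and 93.9% and 98.1% with a control EZH2 peak. From 5 to 6, where 677 of the group lay, they were 70.6% and 74.7% without and 86.0% and 79.3% with one. The distance there was thus larger in replicate 1 than in replicate 2.

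The 188 regions with no control H3K27me3 peak were the most CpG-dense of the group. Their median was 7.15 CpG per 100 bp, against 5.63 in the 304 regions with an H3K27me3 peak in 1 list and 4.42 in the 734 with peaks in both. They were more often at promoters, with 74.5% against 64.1% and 57.4%. Their EZH2 means were lower in shCTR cells, with medians of 5.06, 5.34 and 5.75, and their differences larger, with medians of 1.45, 1.25 and 1.12. PHF19 peaks were absent from both lists in 66.5%, 52.3% and 37.9%. Along this order, regions with less control H3K27me3 were thus denser in CpG, nearer to genes and lower in control EZH2. They were also narrower, with median widths of 2040, 2256.5 and 2619 bp. The higher CpG density was not particular to the group. Among regions with a control EZH2 peak, the 18 without control H3K27me3 had a median of 6.85 CpG per 100 bp, and all of them together 5.04.

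**Figure D2:**
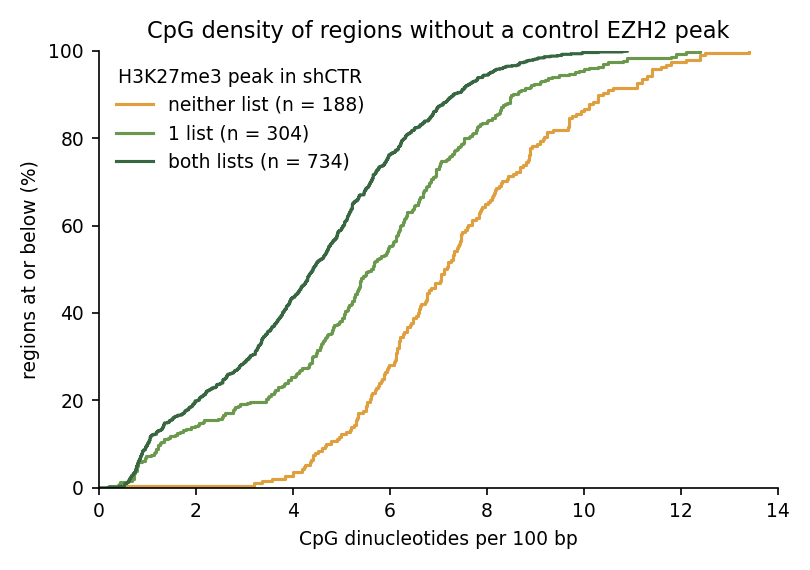
Share of the regions without a control EZH2 peak (vertical, %) at or below a CpG density (horizontal, CpG per 100 bp), by the number of shCTR lists with an H3K27me3 peak. The curve of the 188 regions with none lies to the right, with a median of 7.15 against 4.42 for the 734 with peaks in both lists.

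By EZH2 mean in shPHF19L#4 cells, the regions without control H3K27me3 were led by MDGA2 and by NFATC1, a transcription factor that calcineurin activates. NFATC1 had EZH2 means of 5.96 and 8.20, an MTF2 peak in both shCTR lists, and H3K27me3 peaks only in shPHF19L#4 cells, with scores of 81.8 and 735. A region over the start sites of CYP27B1, which activates vitamin D, and the tRNA methyltransferase gene METTL1 had EZH2 means of 6.28 and 8.07 and an H3K27me3 peak only in the replicate 2 list of shPHF19L#4 cells, with a score of 1055.3. PLEKHO1 had means of 6.60 and 8.03 and a peak in that list alone, with a score of 897. At GAMT, a gene of creatine synthesis, the means were 6.02 and 7.72, and peaks with scores of 133 and 1357.0 were called in the 2 shPHF19L#4 lists. In these 5 regions, H3K27me3 was called in the replicate 2 list of the knock-down cells each time and in its replicate 1 list in 3 (MDGA2, NFATC1 and GAMT).

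In shPHF19L#4 cells the share of the 1226 regions with an H3K27me3 peak was 79.4% in replicate 1 and 99.0% in replicate 2. Both lists were above both shCTR lists, at 89.2% ± 13.9 (SD, n = 2) against 72.3% ± 0.577, a difference of 16.9 percentage points. A two-sided exact permutation test of 2 lists against 2 gave p = 0.33, which is the smallest p this design allows. The regions entered the table through EZH2 peaks of shPHF19L#4 cells, so a higher share in those cells may be partly set by the choice. Nothing is therefore read from this test. The size of the difference depended on the replicate, with 6.69 points in replicate 1 and 27.2 in replicate 2. In replicate 1, 164 regions had a peak only in shPHF19L#4 cells and 82 only in shCTR cells, and in replicate 2 these numbers were 339 and 6. The replicate 2 list as a whole covered 30.4 Mb of the genome in shCTR and 159 Mb in shPHF19L#4 cells, and its part in the difference was not tested. The replicate 1 list covered less in shPHF19L#4 cells, 96.9 Mb against 108 Mb, while its share of these regions was higher.

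Regions with a control EZH2 peak started from higher shares. Their share with an H3K27me3 peak changed from 93.5% to 90.0% in replicate 1 and from 95.9% to 99.0% in replicate 2, so the replicates differed in direction there. At a like EZH2 level the 2 kinds of region moved the same way in replicate 1. With a control mean from 5 to 6 its share went from 70.6% to 79.0% without and from 86.0% to 87.6% with a control EZH2 peak, and with a mean from 6 to 7 from 88.3% to 83.0% and from 93.9% to 91.4%. In replicate 2 the shares were higher in shPHF19L#4 cells in each of these bins. The 188 regions with no control H3K27me3 peak had a peak in shPHF19L#4 cells in 47.9% of cases in replicate 1 and 97.9% in replicate 2. This rise is partly set by how the 188 were chosen, since none could have a peak in shCTR cells.

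Of the authors' H3K27me3 regions with a difference, only the 1048 with the higher mean in shPHF19L#4 cells were counted. They overlapped 237 of the 1226 regions (19.3%), 12.8% of all 2408 EZH2 regions and 6.09% of those with a control EZH2 peak. Of these 1048, 242 (23.1%) lay on EZH2 regions without a control peak. The median of the authors' H3K27me3 means at the 237 was 6.59 in shCTR and 7.70 in shPHF19L#4 cells. The share was 61.7% at the 188 regions without control H3K27me3, 27.3% at the 304 with a peak in 1 list and 5.18% at the 734 with peaks in both, an order that is largely set by the split, since both rest on the same H3K27me3 ChIP of control cells. MEX3D was among the 237, with H3K27me3 means of 3.58 and 6.34.

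**Figure D3:**
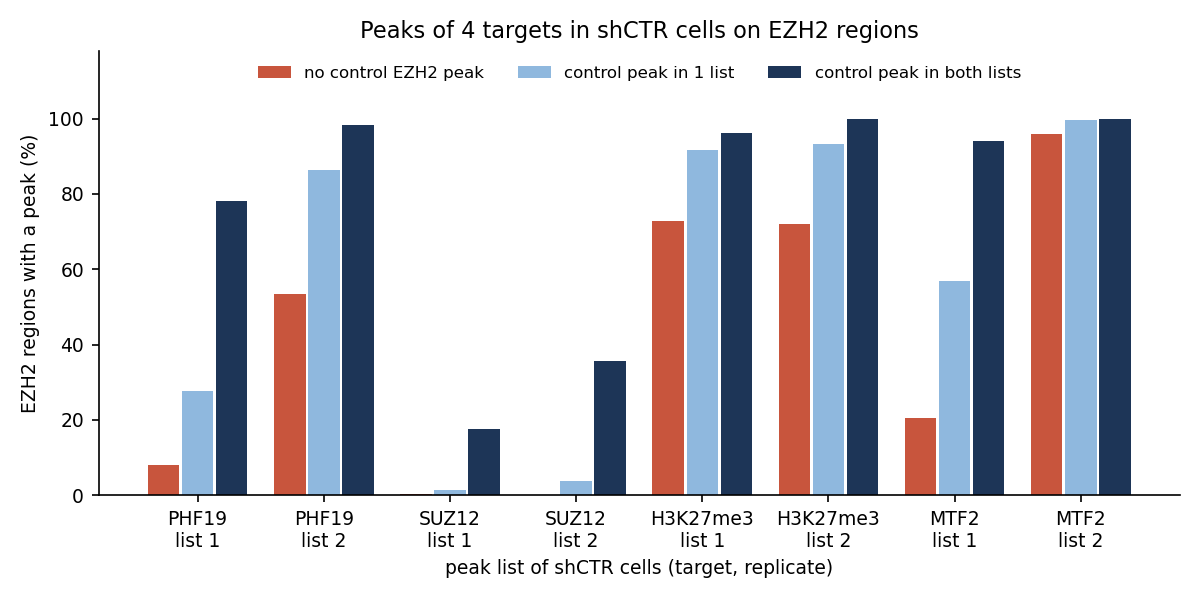
Share of EZH2 regions (vertical, %) that overlap a peak in each shCTR list of 4 targets (horizontal), by the number of control EZH2 lists with a peak. In every list the regions without a control EZH2 peak have the lowest bar, from 0.0816% for SUZ12 in replicate 2 to 95.9% for MTF2 in replicate 2.

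MTF2 was called at nearly all of the regions in 1 control list and at few in the other. In shCTR cells, 250 regions (20.4%) had a peak in the replicate 1 list and 1176 (95.9%) in the replicate 2 list, a mean of 58.2% ± 53.4 (SD, n = 2), so the level of this share is set by the list used. The lists covered 5.98 and 46.6 Mb of the genome. In both, the share was below that of regions with a control EZH2 peak, which was 71.9% and 99.8%. Only 47 regions without a control EZH2 peak had no MTF2 peak in either list.

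In shPHF19L#4 cells, MTF2 peaks were called at 71.3% and 99.2% of the 1226 regions. Within replicate 1, 629 regions had a peak only in shPHF19L#4 cells and 5 only in shCTR cells, a difference of 50.9 percentage points, and in replicate 2 the numbers were 41 and 1, a difference of 3.26 points. The mean difference was 27.1 points, from 58.2% to 85.2% ± 19.7 (SD, n = 2), and a two-sided exact permutation test gave p = 0.667. As for H3K27me3, the choice of regions may favour shPHF19L#4 cells, so nothing is read from this test. The lists as a whole were also larger in shPHF19L#4 cells, at 11.0 Mb against 5.98 Mb in replicate 1 and 59.0 Mb against 46.6 Mb in replicate 2, and the part of this in the differences was not tested. The groups of lists overlapped, since the replicate 2 list of shCTR cells was above the replicate 1 list of shPHF19L#4 cells. Scores in replicate 2, where nearly every region already had a peak, had a median of 524 in shCTR and 1818.8 in shPHF19L#4 cells. At HS3ST3B1 the MTF2 peak of replicate 2 had scores of 3064.0 in shCTR and 3100 in shPHF19L#4 cells. The score 3100 recurs at many regions, and in shPHF19L#4 cells it is also the median of regions with a control EZH2 peak. Scores at this value may be capped, so nothing is read from the match or from the step to it. A peak of replicate 1 was called at HS3ST3B1 in shPHF19L#4 cells only. Regions with a control EZH2 peak differed by 23.8 points in replicate 1 and by 0.0846 points in replicate 2, from shares that were higher to begin with.

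**Figure D4:**
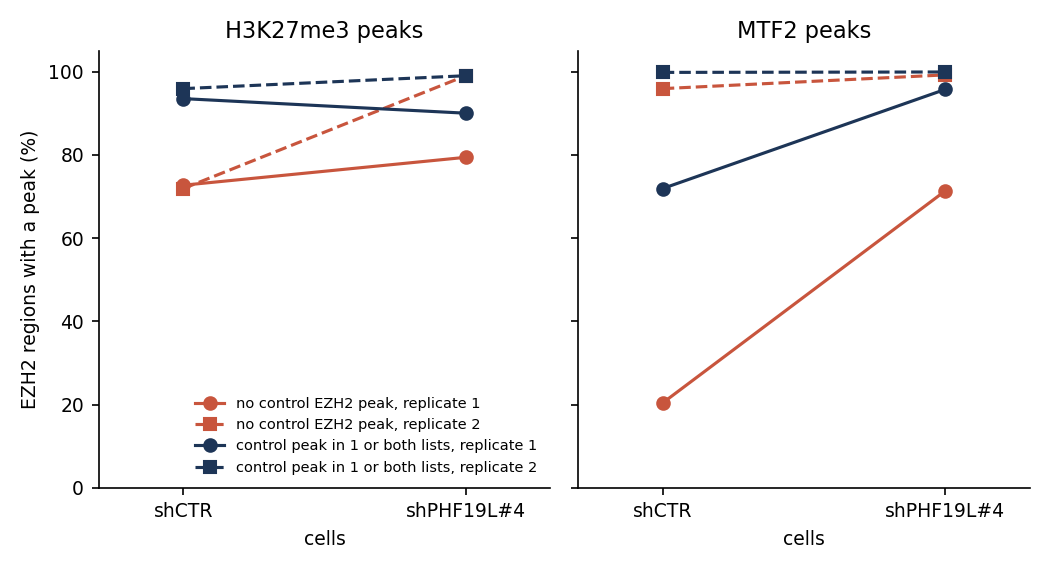
Share of EZH2 regions with an H3K27me3 peak (left) and an MTF2 peak (right) in shCTR and shPHF19L#4 cells (vertical, %), with a line for each replicate, for regions without and with a control EZH2 peak. Without a control EZH2 peak every line goes up, by 6.69 and 27.2 points for H3K27me3 and by 50.9 and 3.26 points for MTF2. These regions entered the table through EZH2 peaks of shPHF19L#4 cells, which may favour those cells.

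Of the authors' MTF2 regions with a difference, only the 2539 with the higher mean in shPHF19L#4 cells were counted. They overlapped 819 of the 1226 regions (66.8%), 80.1% of all 2408 and 93.9% of those with a control EZH2 peak. Of these 2539, 832 (32.8%) lay on EZH2 regions without a control peak. The median of the authors' MTF2 means at the 819 was 7.13 in shCTR and 8.03 in shPHF19L#4 cells, and at regions with a control EZH2 peak it was 8.45 and 9.34. The MTF2 means were thus lower where EZH2 had no control peak, in both kinds of cell. They are not scaled to width, and regions with a control EZH2 peak were wider, with a median of 3960.5 against 2410.5 bp. The part of width was not tested. NALF2, which had no H3K27me3 peak in any list, had MTF2 peaks in all 4 lists and MTF2 means of 6.13 and 7.13.

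PHF19 peaks of shCTR cells were less frequent where EZH2 had no control peak. They overlapped 7.99% of the 1226 regions in replicate 1 and 53.5% in replicate 2, a mean of 30.8%, where the lists covered 2.13 and 16.8 Mb of the genome. Regions with an EZH2 peak in 1 control list had 27.8% and 86.3%, and those with peaks in both had 78.2% and 98.3%. The order of the classes was the same in both PHF19 lists, although the level of each differed. Peaks of both PHF19 lists were found at 90 regions without a control EZH2 peak, and peaks of neither at 562 (45.8%). At a control mean of EZH2 from 6 to 7 the PHF19 shares were 16.3% and 80.3% without, and 33.8% and 88.9% with, a control EZH2 peak. From 5 to 6, where 677 of the group lay, they were 6.35% and 54.7% without, and 13.2% and 66.9% with one.

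The authors' table of PHF19 regions against input overlapped 168 of the 1226 (13.7%), where it overlapped 37.1% of all 2408 and 61.4% of those with a control EZH2 peak. At a control mean of EZH2 from 5 to 6 it overlapped 11.1% without and 24.8% with a control EZH2 peak. From 6 to 7 the shares were 28.0% and 49.1%. These 168 regions were 13.5% of that table. Led by EZH2 mean in shPHF19L#4 cells, they included PAX9, EGLN3, SYNDIG1L, SNTB1 and KCNH2, the gene of a cardiac potassium channel. The authors' PHF19 mean was 9.81 at PAX9, 8.69 at EGLN3, 5.52 at SYNDIG1L, 7.28 at SNTB1 and 6.01 at KCNH2, and its median over the 168 was 6.04, against 6.87 in regions with a control EZH2 peak. These PHF19 means are not scaled to width. H3K27me3 was common in the 168 regions, with peaks of both shCTR lists at 81.0%.

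SUZ12 peaks of shCTR cells were nearly absent from the group. There were 4 regions with a peak in replicate 1 (0.326%) and 1 in replicate 2 (0.0816%), a mean of 0.204%, from lists that covered only 2.36 and 0.482 Mb of the genome. Without the regions within 1 kb of a control EZH2 peak, which include MDGA2 at 823 bp and the NPAS3 region at 252 bp, the mean was 0.124%. The replicate 1 peaks lay at MDGA2, inside NPAS3 and ELMO2 and near RANBP3L, with scores of 95.1, 98.0, 68.2 and 53.0, and the replicate 2 peak lay at HTRA1, with a score of 68.1. The scores of these lists begin at 50.01 and 50.36 and have medians of 66.8 and 94.3, so 3 of the 4 replicate 1 peaks lay above their list's median and the replicate 2 peak below. With peaks of a score of at least 100 only, no region of the group had a SUZ12 peak. SUZ12 peaks were also rare in regions with an EZH2 peak in 1 control list, at 1.42% and 3.82%, and were found at 17.6% and 35.7% of those with peaks in both. At a control EZH2 mean from 5 to 6 the shares were 0.295% and 0.148% without and 0% and 0.826% with a control EZH2 peak. These are shares of 677 and 121 regions and rest on very few peaks, so no order is read from them. Of the authors' SUZ12 regions with a difference, only those with the higher mean in shPHF19L#4 cells were counted. They overlapped 17 of the 1226 regions (1.39%) and 20.3% of all 2408. EGLN3 was among the 17, with SUZ12 means of 7.75 and 8.35, as were SAMD11 with 4.99 and 7.14 and NFATC1 with 4.43 and 6.08.

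Read together over the shCTR lists, the 1226 regions fell into a few states. H3K27me3, MTF2 and PHF19 peaks, each in at least 1 list, were present at 601 regions (49.0%). H3K27me3 and MTF2 without PHF19 were present at 403 (32.9%). MTF2 without H3K27me3 was found at 175 (14.3%) and H3K27me3 without MTF2 at 34 (2.77%). Another 12 had none of the 3, and PHF19 alone was found at 1 region, over the start site of the neural adhesion gene NCAM1, where the only PHF19 peak had a score of 53.2. The places of MTF2 and PHF19 in these states rest on the replicate 2 lists. MTF2 had a peak in that list alone at 929 regions and in the replicate 1 list at 250, and PHF19 had one in the replicate 2 list alone at 566 of the 664 regions with a PHF19 peak.

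By gene, the regions within 2.5 kb of a start site belonged to 785 of 19460 protein-coding genes. Of these, 747 (3.84%) had only a region without a control EZH2 peak and 38 also had a region with one, and 936 genes (4.81%) had a region with a control peak. Among genes with a region of either kind, 44.4% had only a region without a control peak. Lists of genes were counted against this share and not tested.

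Homeobox genes were the largest list of developmental transcription factors. Of 154 homeobox genes outside the HOX clusters, 19 had only a region without a control peak and 66 had one with a control peak, so 22.4% of the bound genes were of the former kind. POU4F3, the eye development factors VAX2 (EZH2 means of 6.04 and 7.24) and VAX1 (6.12 and 7.21), and POU3F1 (5.51 and 7.23) were the highest of the 19. Of 52 forkhead genes, 4 had only a region without a control peak (FOXA3, FOXO6, FOXI2 and FOXE3) and 15 had one with a control peak. For SOX genes the numbers were 3 and 6 of 19, for T-box genes 1 and 3 of 16, for a list of lineage factors of the basic helix-loop-helix class 5 and 12 of 39, and for GATA factors 0 and 4 of 6. SOX8 (6.27 and 7.49), SOX17 (6.19 and 6.85), SOX3 (5.49 and 6.58), TBR1 (5.17 and 6.09), ATOH8 (5.67 and 7.42) the muscle factor MYOD1 (5.56 and 6.99), ASCL2 (5.01 and 6.58) and NHLH2 (5.31 and 6.36) were among those without a control peak. HOX genes had 5 and 4 of 39, and the 5 were HOXA13 (6.24 and 7.59), HOXB8 (6.73 and 7.35), HOXC11 (5.82 and 6.92), HOXC8 (5.65 and 6.91) and HOXA11 (5.81 and 6.67).

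Regions of both kinds were found at 38 genes, of which only some encode transcription factors. Homeobox genes made up 8 of the 38, among them BARX1, LHX9, MNX1, MSX1, PAX6 and PROX1. At PAX6, a master gene of eye development, the region without a control peak had a mean of 6.99 in shPHF19L#4 cells and the region with a control peak 8.61, and at MSX1 the means were 7.87 and 9.05. At FOXP1 and CACNA1E the order was the other way, with 7.78 against 6.93 and 7.74 against 7.48.

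Among signalling genes the lists were small and their counts ran in both directions. Of 19 WNT ligand genes, 5 had only a region without a control peak, which were WNT10B (6.96 and 8.25), WNT5A (6.06 and 7.33), WNT9A (5.56 and 6.94), WNT16 (5.73 and 6.86) and WNT3 (5.52 and 6.26), and 8 had a region with a control peak. Of 10 Frizzled receptor genes, FZD8 alone had a region, without a control peak (6.42 and 8.26). The antagonists of WNT and BMP signals had 6 and 5 of 22, among the former the BMP inhibitor NOG (6.75 and 7.96) and BAMBI (6.36 and 7.65). FGF ligand genes had 4 (FGF11, FGF12, FGF20 and FGF14) and 5 of 22, Notch ligands and receptors 2 and 2 of 9, and Eph receptors and ephrins 2 (EPHB3 and EPHB6) and 5 of 22. The 2 Notch genes were the ligand DLL4 (7.07 and 8.20) and the receptor NOTCH1 (5.93 and 7.94). BMP and GDF ligand genes had 0 and 7 of 20.

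Potassium channel genes were the list of more than 10 bound genes with the highest share of genes bound only without a control peak. Of 95, 24 had only such a region and 15 had one with a control peak, or 61.5% of the bound genes. KCNH2 (7.25 and 8.46), KCNF1 (5.95 and 8.09) and KCNK2 (6.41 and 7.60) were among the highest, and 15 of the 24 had H3K27me3 peaks in both shCTR lists, as did 405 of the 747 genes of this kind over all. Calcium and sodium channel genes had 7 and 9 of 40, solute carriers 17 and 26 of 367, and neurotransmitter receptors 14 and 19 of 113. The acetylcholine receptor genes CHRM4 (6.60 and 8.17) and CHRNA7 (6.92 and 8.00) led the receptors.

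In the remaining lists the numbers were small. Collagen genes had 7 and 7 of 44, led by COL9A2 (5.60 and 7.40), and cadherins and protocadherins 2 and 3 of 89. The 2 were PCDH8 (5.71 and 7.00) and CDH1, which encodes E-cadherin (5.48 and 6.93, with a control H3K27me3 peak in replicate 2 only). Of 508 ZNF genes, 6 had only a region without a control peak and 4 had one with a control peak. Of 31 genes of Polycomb complexes, BMI1 alone was of the former kind (4.68 and 6.49, with no H3K27me3 peak in shCTR cells), and 4 were of the latter. Of 80 ribosomal protein genes, counted as genes that every cell uses, RPL38 had a region without a control peak (6.55 and 7.44) and none had a region with one.

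**Figure D5:**
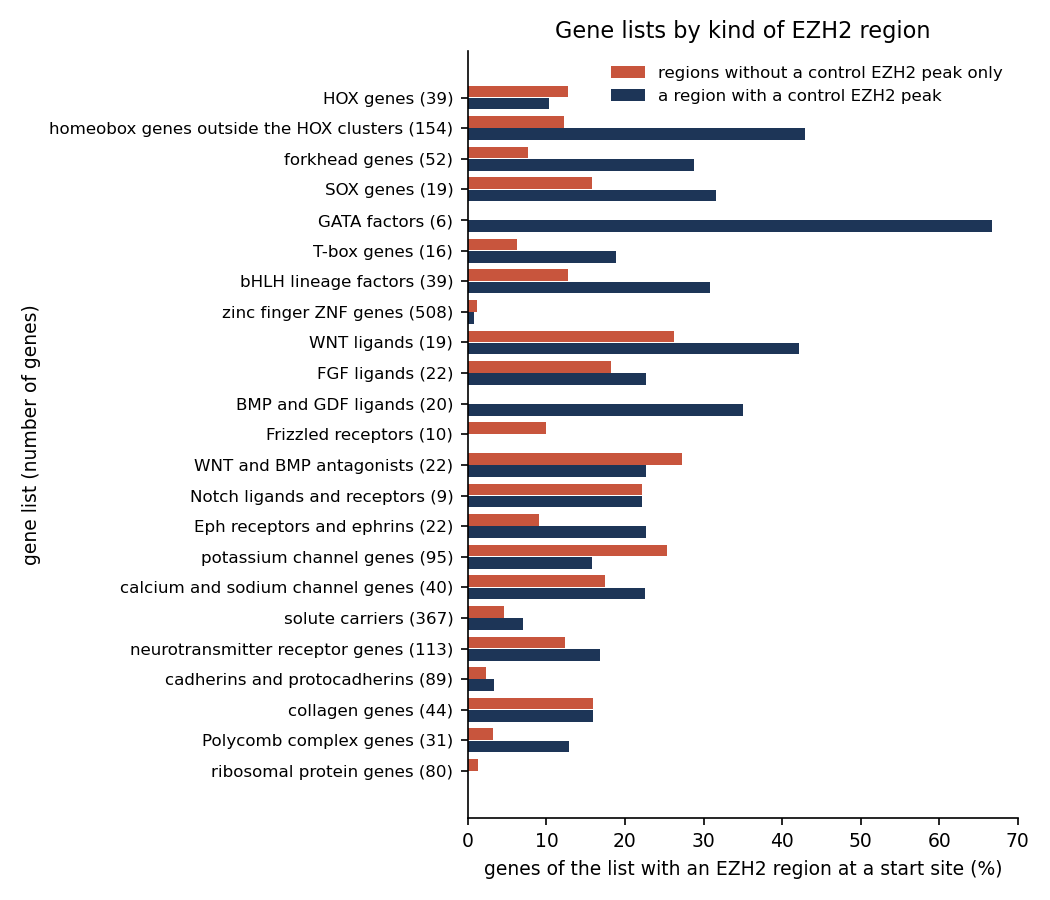
Share of the genes of each list (horizontal, %) that have, within 2.5 kb of a start site, only EZH2 regions without a control peak or a region with a control peak. Homeobox genes outside the HOX clusters have 12.3% and 42.9%, and potassium channel genes 25.3% and 15.8%.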

How the data were processed

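The sources were 14 peak lists and 5 DiffBind tables for EZH2, SUZ12, PHF19, MTF2 and H3K27me3. As the authors' methods state, reads were mapped with Bowtie to hg19 (to hg19 with the fly genome for libraries with spike-in), uniquely mapped reads were kept, and peaks were called by MACS in single replicates with a matched control. Deposited peaks carry a MACS score, apart from replicate 1 of PHF19, whose header names tags, and replicate 1 of MTF2, which gives positions alone. The log2 values are the authors' mean read concentrations per region and condition from DiffBind, with no value per replicate. Their columns of fold, P value and FDR, which hold the authors' own comparisons, were not used.

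Overlaps of at least 1 bp were counted with Python 3.11.15, numpy 2.4.6, pandas 2.3.3 and scipy 1.17.1, and figures were drawn with matplotlib 3.10.9. Coordinates are counted from 1. Genes are those of GENCODE release 44 mapped to GRCh37, and a promoter reached 2.5 kb to each side of a start site of a protein-coding transcript. A mean per kb is the authors' mean minus the log2 of the width in kb. Shares in the 2 conditions were compared with a two-sided exact permutation test of 2 lists against 2. The replicates are biological ones by the study's text, and p-values measure only the spread between these lists of 1 cell line. The overlap counts and the tests were tested on simulated data.

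Regions were named by rank: the 12 highest means in shPHF19L#4 cells, the 6 largest differences, the 5 lowest means, the 5 highest in the PHF19 table and without control H3K27me3, and 5 at each side of the choice; up to 4 genes of a list were named by their mean. SUZ12-positive regions, NCAM1, genes with regions of both kinds and any further genes of a list were named after their values were seen. Printed stretches exclude chromosome 8 and windows on untranslated exons, and a few items that the rules would name are not reported here. The members and lists were chosen with earlier results of these data known. Alternatives were other overlaps, scores, windows, sets of regions and lists left out. Read totals are not part of the lists, so the depth is unknown and no interval for counting reads is given. Input libraries other than the authors' input mean in the PHF19 table, the PHF19, EZH2 and SUZ12 lists of shPHF19L#4 cells and RNA-seq were not analysed here.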

Additional observations from a re-analysis of the deposited data

How the results depend on the processing

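Leaving out 1 of 2 lists gives back the other list's share, so it is no check of a control share. Among the alternatives, 40 neither left out a list nor took replicates as a block. Of these 40, 7 moved a value beyond the spread between the lists, its interval or 1.5 times the count. For the control MTF2 and PHF19 shares that spread is too wide to show much, and those alternatives gave 57.8% to 58.3% and 28.1% to 31.1%. The differences between conditions were checked in these 40 for their sign alone, and 0 were reversed. Counts, shares, levels and densities could not be reversed, so the absence of reversals says nothing about them. With H3K27me3 peaks that cover at least 25% of a region the control share was 70.7%, and with scores of at least 100 it was 57.6%. With the same score the SUZ12 share was 0. All annotated genes raised the promoter share to 75.8%. When only control EZH2 peaks with a score of at least 100 excluded a region, 1646 regions were without such a peak, with median EZH2 means of 5.74 and 6.89. A window of 2 kb around the centre gave 5.70 CpG per 100 bp. With 1 replicate left out, the H3K27me3 difference between conditions ranged from 6.69 to 27.2 points, the MTF2 difference from 3.26 to 50.9 points, the control MTF2 share from 20.4% to 95.9% and the control PHF19 share from 7.99% to 53.5%.

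Taking the replicate number as a block, by flipping signs within replicates, left the differences at 16.9 points for H3K27me3 and 27.1 points for MTF2, with an exact permutation p of 0.5 for each, the smallest this pairing allows. The labels give the lists a shared number and no shared batch, and neither fit could pass a threshold. The unknown depth limits every share of called peaks.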

Other observations

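Regions without a control EZH2 peak made up 21 of the 28 EZH2 regions on chromosome X (75.0%), the highest share of any chromosome with at least 20 regions. Chromosome 19 followed with 85 of 141 (60.3%), and chromosome 18 was lowest with 14 of 39 (35.9%). The median EZH2 mean of the regions without a control peak in shCTR cells was 4.82 on chromosome X and 5.38 on chromosome 19, against 5.53 over all of them. On chromosome 22 the median difference between the means was 1.41, and on chromosome 5 it was 1.03.

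The 562 regions with no PHF19 peak in either control list had a median EZH2 mean of 5.17 in shCTR and 6.43 in shPHF19L#4 cells. Their H3K27me3 share differed by 12.6 points between the conditions in replicate 1 and by 40.2 points in replicate 2. In the 168 regions of the PHF19 table the H3K27me3 difference was -7.14 points in replicate 1 and 13.1 points in replicate 2. These values were not tested, and the subsets were chosen on peaks of the same cells.

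At promoters, 121 of the 756 regions had an H3K27me3 peak only in shPHF19L#4 cells and 49 only in shCTR cells in replicate 1, and 238 and 0 in replicate 2, whose list covered far more of the genome in shPHF19L#4 cells. Outside promoters the numbers were 43 and 33 of 470 in replicate 1 and 101 and 6 in replicate 2.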
